A study of Mus musculus with 4 samples.

Results

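The nuclear genes of the mitochondrial respiratory chain were examined on arrays of whole-brain RNA from adult C57BL/6J male mice that had received ethanol or saline as neonates. A probe set, the group of probes that the array reads out as 1 transcript, was taken as a member when its annotation named a single gene of the chain. The accepted symbols were those starting with Nduf, Uqcr or Atp5, those starting with Cox and a digit from 4 to 8, and Cyc1, Sdha, Sdhb, Sdhc and Sdhd. This rule used no measured value, although it was chosen with earlier results of these data known. It gave 115 probe sets for 90 genes, out of 35556 probe sets of which 21789 name 1 gene. Complex I is represented by 48 probe sets for 43 genes, complex II by 4 for 4, complex III by 12 for 9, complex IV by 21 for 17 and complex V by 30 for 17. Of the 115 probe sets, 105 stand for structural subunits of the complexes, 7 for the complex I assembly factors Ndufaf1 to Ndufaf7, and 3 for the related proteins Ndufa4l2 and Cox7a2l. Complexes were assigned by symbol, so Ndufa4 is counted with complex I although it is now regarded as a subunit of complex IV. The subunits encoded by mitochondrial DNA carry other symbols and are not among the members.

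The respiratory chain lies in the inner membrane of mitochondria. Complexes I and II pass electrons from NADH and succinate to ubiquinone, complex III passes them on to cytochrome c, and complex IV hands them to oxygen. Complexes I, III and IV pump protons across the membrane, and complex V, the ATP synthase, uses the return of those protons to make ATP. Neurons draw most of their ATP from this chain, and the transcripts of its subunits are abundant in brain. Each complex is built from a core that carries the redox centers or the catalytic sites, from accessory subunits that stabilize it, and with the help of assembly factors that are not part of the finished enzyme.

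Pups of the ethanol group had been injected under the skin with 2 doses of 2.5 g/kg ethanol, given 2 hours apart, on postnatal days 4 and 7, a time that stands for the third trimester of human brain development. Control pups had received saline on the same schedule. The labels give weaning at day 25 and collection of the brain at day 60, whereas the study's methods give other days. There are 2 arrays per group, called control 1, control 3, ethanol 2 and ethanol 4 after their titles, and each holds RNA pooled from 3 males of different litters, so that 4 pools and not single animals are compared. Ethanol-exposed and control mice were matched within litters, but nothing says which pools correspond. For control 1 and ethanol 4 the labels conflict, since their treatment entry reads ethanol for the first and control for the second. Groups follow the titles and source names, which have the same group for each array, and the other grouping was run as an alternative.

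The deposited values are log2 signals, on which a difference of 1 is a doubling. Over all probe sets the control arrays had medians of 6.61 and 6.51, above those of ethanol 2 (6.33) and ethanol 4 (6.38), so 80.2% of all probe sets had the lower mean on the ethanol side, with a median difference of -0.15. Every difference below (ethanol minus control) is therefore given as deposited and, where it matters, after a further quantile normalization that makes the distributions of the 4 arrays equal. The neuronal markers (Rbfox3, Snap25, Syt1, Tubb3, Eno2 and Map2) were bright on all 4 arrays, with a mean log2 signal of 11.73 to 11.91. Ethanol 2 stands apart in its pituitary markers, whose mean log2 signal was 5.69 there against 8.68 to 8.69 on the other 3 arrays, and Gh was at 6.53 on ethanol 2 and at 12.19 to 12.26 elsewhere. Their part in the results was not tested, and counts without ethanol 2 are given below.

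As deposited, 93 of the 115 respiratory chain probe sets (80.9%) had lower signals on the ethanol arrays, beside 80.2% of all probe sets. The limits applied are those of the study, a difference of at least 1.2-fold together with an unadjusted p under 0.05, here from limma's moderated test (two-sided, n = 2 arrays per group). Of the 115 probe sets, 14 were lower past the limits (12.2%) and 0 were higher past them, beside 17.9% and 2.23% of all probe sets. The 14 comprise 9 of complex I, 2 of complex IV and 3 of complex V, and 0 of complexes II and III. The lowest adjusted p from limma among the 115 was 0.171, so none was under 0.05, and 17 had an unadjusted p under 0.05. As arrays of whole brain were used, fewer cells of a type and less RNA per cell cannot be told apart. Because the RNA was pooled, p-values measure the spread between pools.

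The count of 14 differed with the scaling and with single arrays left out. After quantile normalization 3 probe sets were lower past the limits and 3 were higher (2.61% each), beside 5.87% and 5.71% of all probe sets. The lower ones were Ndufb8, Cox4i1 and Atp5e, and the higher ones were Ndufaf5, Cox6a2 and a probe set of Uqcr11. With each array centered on its own median, 12 members were higher and 0 were lower, beside 9.09% and 3.91% of all probe sets. Centering adds 0.21 to every difference, so negative values nearer to 0 than this turn positive. The 14 lower members had passed a log2 limit of 0.26, so centering could not turn them positive. After quantile normalization, which moved the median of all probe sets from -0.15 to -0.0042, all 14 also kept a negative difference. Having passed the limit of 0.26, they were likely to do so. Without ethanol 2 the count of lower members as deposited was 5, beside 9.84% of all probe sets, and these 5 were Ndufb8, Ndufaf1, Ndufaf2, Cox4i1 and Atp5e. Without control 1 it was 6, beside 9.8% of all probe sets, and without control 3 it was 13, beside 18.2%. Without ethanol 4 it was 8, beside 12.8%, and 1 member was higher, beside 2.01%. Under the treatment entry of the labels 0 members were past the limits in either direction, beside 0.686% of all probe sets that were lower and 0.917% that were higher. Of the 14, 9 kept a negative difference there, between -0.12 and -0.031, which for Ndufb8 was -0.097, for Ndufa1 -0.10 and for Cox4i1 -0.031, and the other 5 turned positive.

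The median difference of the 115 members was -0.12 as deposited, beside -0.15 for all probe sets, and their differences ran from -0.43 to 0.27. After quantile normalization the median was -0.047, beside -0.0042 for all probe sets, so the members lay 0.025 above the rest in the first form and 0.043 below it in the second (-0.043 relative to all probe sets). As deposited, both ethanol arrays were below both control arrays in 58 of 115 members (50.4%), and both were above in 9 (7.83%), beside 52.7% and 7.25% of all probe sets. After quantile normalization these numbers were 40 (34.8%) and 17 (14.8%), beside 24.9% and 24%. For a member past the limits, groups that do not overlap follow largely from the limits, which use the same arrays. Replicate pools differed from each other by a median log2 of 0.11 over the members, for the control pair as for the ethanol pair, which is close to the size of the median difference between the groups.

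**Figure D1:**
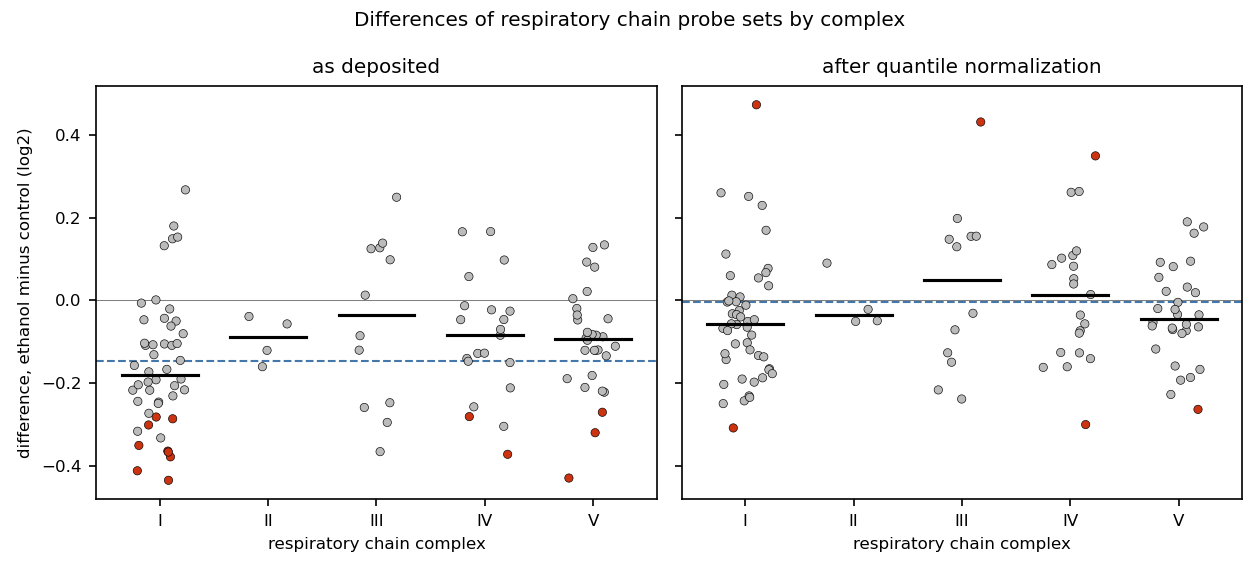
Difference of each of the 115 probe sets (log2, ethanol minus control, vertical axis) by respiratory chain complex (horizontal axis), as deposited on the left and after quantile normalization on the right. Each point is 1 probe set, red where past the limits, black bars are medians of a complex and the dashed line is the median of all probe sets. As deposited the complex I bar, at -0.18, lies below the dashed line at -0.15 and the bars of the other 4 complexes lie above it.

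By complex, the probe sets of complex I had the lowest median, -0.18 as deposited and -0.058 after quantile normalization. Set against the median of all probe sets, these are -0.036 and -0.053. With structural subunits alone the first was -0.0054, and its standard deviation between replicate arrays was 0.057. The medians of the other complexes were -0.089 for complex II, -0.037 for complex III, -0.084 for complex IV and -0.094 for complex V, which lie 0.057, 0.11, 0.061 and 0.052 above all probe sets. After quantile normalization complexes III and IV were still above all probe sets, by 0.053 and 0.018, whereas complexes II and V were below (-0.031 and -0.040). The complex I median stayed below all probe sets with each array left out in turn (-0.067 to -0.0051), and that of complex III was below them without control 1 (-0.0080) or without ethanol 2 (-0.0046). The members of complex I were also the dimmest, with a median log2 signal of 9.41 against 9.83 to 11.11 for the other complexes. These medians of differences are descriptions, and the differences between complexes were not tested.

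The promoters of respiratory chain genes are known to be bound by NRF-1, by the ETS-family factor GABP (NRF-2), by YY1 and by estrogen-related receptors, and the letters of their sites were searched in RefSeq windows from 250 bases before to 50 bases after each start (assembly GRCm38.p6, both strands). A window was given for 73 of the 90 genes. The NRF-1 half-site GCATGCGC was in 12 of the 73 windows (16.4%), beside 3.94% of the windows of 17492 genes. The ETS core CCGGAAG was in 18 (24.7%) beside 12.9%, the YY1 core AAGATGG in 10 (13.7%) beside 7.18%, and the receptor element TCAAGGTCA in 2 (2.74%) beside 0.377%. The letters AAG end the ETS core and begin the YY1 core, so a single run can hold both, but in 0 of the 73 windows did matches of different motifs overlap. At least 1 of the 4 was in 35 of the 73 windows, namely in 17 of 38 for complex I, 2 of 3 for complex II, 3 of 5 for complex III, 3 of 12 for complex IV and 10 of 15 for complex V. A match is a run of letters and was not tested as a bound site.

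Of the 6 genes past the limits after quantile normalization, the 4 with a window are shown here to set the genes that were lower beside those that were higher. Each stretch runs from 120 bases before the start to 30 bases after it, 5′ to 3′ on the strand of the gene, with matches to the searched letters in capitals. Ndufb8 lies at chr19:44555413-44555562 (minus strand), Atp5e at chr2:174464072-174464221 (minus strand), Ndufaf5 at chr2:140170526-140170675 (plus strand) and Uqcr11 at chr10:80406792-80406941 (minus strand).
Ndufb8: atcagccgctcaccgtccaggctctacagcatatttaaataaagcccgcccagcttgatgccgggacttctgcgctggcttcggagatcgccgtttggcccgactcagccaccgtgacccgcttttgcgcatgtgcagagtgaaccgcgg
Atp5e: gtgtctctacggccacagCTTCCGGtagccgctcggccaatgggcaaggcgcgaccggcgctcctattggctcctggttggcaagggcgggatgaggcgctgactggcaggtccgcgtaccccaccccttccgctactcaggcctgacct
Ndufaf5: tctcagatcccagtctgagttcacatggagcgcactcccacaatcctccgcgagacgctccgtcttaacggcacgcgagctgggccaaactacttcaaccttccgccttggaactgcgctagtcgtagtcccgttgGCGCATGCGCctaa
Uqcr11: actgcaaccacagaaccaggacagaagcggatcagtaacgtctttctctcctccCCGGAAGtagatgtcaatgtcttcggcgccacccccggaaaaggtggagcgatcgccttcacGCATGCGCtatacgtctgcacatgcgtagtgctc
Of the genes that were lower, Atp5e has an ETS core, read on the opposite strand, that begins 102 bases before the start, and Ndufb8 has no match in the stretch shown and a YY1 core at bases 39 to 45, counting the start as base 1, beyond it. Of those that were higher, Ndufaf5 has overlapping NRF-1 half-sites on both strands at bases 17 to 26. Uqcr11 has an ETS core that begins 66 bases before the start and an NRF-1 half-site that spans it. Uqcr11 counts as higher only by the probe set past the limits. Its other probe set had both ethanol arrays below both controls (-0.13 after quantile normalization). Windows of Cox4i1 and Cox6a2 were not used here. The NRF-1 half-site was also in the windows of Atp5k and Atp5g2, each with a probe set lower past the limits as deposited. It was thus not confined to genes that were higher, and a link between motif and direction was not tested.

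Complex I is the largest complex of the chain, and 9 of its 48 probe sets (18.8%) were lower past the limits, a share near the 17.9% of all probe sets. The lowest difference among them was that of Ndufb8, an accessory subunit of the membrane arm whose protein is widely used as a marker of assembled complex I. Its log2 signal was 8.80 on control 1, 8.98 on control 3, 8.45 on ethanol 2 and 8.46 on ethanol 4. The ethanol arrays lay close together and below both controls. The difference was -0.43 (standard error 0.10, adjusted p = 0.172 from limma) and -0.31 after quantile normalization (adjusted p = 0.361 from limma), past the limits in both forms. Ndufb8 was among the 5 members still lower past the limits without ethanol 2, and its promoter stretch is one of the pair printed for lower genes.

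The other accessory subunits past the limits as deposited were Ndufa1, Ndufs5, Ndufa9 and Ndufa13. Ndufa1, a small membrane subunit encoded on the X chromosome and needed for assembly of the complex, had control signals of 7.94 and 7.97 against 7.46 on ethanol 2 and 7.63 on ethanol 4. Its groups did not overlap, and its difference was -0.41 (standard error 0.10, adjusted p = 0.173 from limma), which after quantile normalization was -0.25 and short of the limits. Ndufs5, a subunit on the side of the intermembrane space, was at 7.44 and 7.23 on the control arrays against 6.96 and 6.98, a difference of -0.37. Ndufa9, which lies where the arms of the complex meet, was at 11.25 and 11.08 against 10.92 and 10.84, a difference of -0.29. Both ethanol arrays were below both controls in each. Ndufa13, also known as GRIM-19, was at 9.32 and 9.38 against 9.06 and 9.07, a difference of -0.28. After quantile normalization these last 3 were at -0.18, -0.23 and -0.17, each short of the limits. Across the 33 probe sets of accessory subunits of complex I, 5 were past the limits and lower and 30 had a negative difference, with a median of -0.17. The shares over all probe sets were 17.9% and 80.2%.

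The assembly factors of complex I had a median of -0.27 over 7 probe sets as deposited, lower than its accessory and core subunits. Of the 7, 3 were lower past the limits and 6 had a negative difference, beside 17.9% and 80.2% of all probe sets. Their median log2 signal was 7.16, and from 6 to 8 the share of all probe sets lower past the limits was 23.8%. Ndufaf1, part of the machinery that builds the membrane arm, had control signals of 8.79 and 8.71, against 8.46 on ethanol 2 and 8.31 on ethanol 4. Ndufaf2, a paralog of the subunit Ndufa12 that holds its place during assembly, was at 7.73 and 7.65 against 7.41 and 7.21. In both genes the groups did not overlap, and ethanol 4 was the lowest array. The differences were -0.36 and -0.38 (standard errors 0.10 and 0.11, adjusted p = 0.179 and 0.182 from limma), and -0.23 and -0.20 after quantile normalization, short of the limits. Ndufaf3, which acts with Ndufaf4 on the part of the complex that binds ubiquinone, was at 9.78 and 9.90 against 9.47 and 9.60, a difference of -0.30 (-0.19 after quantile normalization), again with groups that did not overlap. Ndufaf5, which modifies the core subunit Ndufs7, ran the other way, with 6.52 and 6.45 on the control arrays against 6.85 on ethanol 2 and 6.65 on ethanol 4. Both ethanol arrays were above both controls, and the difference of 0.27 (standard error 0.11, adjusted p = 0.245 from limma) missed the p limit as deposited and was past both limits after quantile normalization, at 0.47 (adjusted p = 0.279 from limma). After normalization the median of the 7 was -0.068, beside -0.057 for the accessory and -0.047 for the core subunits.

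The core subunits of complex I, which carry the flavin and the iron-sulfur clusters, had 0 of 7 probe sets past the limits and a median of -0.10. Of all probe sets, 17.9% were lower and 2.23% higher past the limits as deposited. Ndufs1, the largest core subunit, was at 9.98 and 9.93 on the control arrays against 9.80 and 9.65, a difference of -0.23. Ndufv1, which binds NADH, was at 9.87 on control 1 and 10.13 on control 3 and at 10.18 on both ethanol arrays, a difference of 0.18. The ethanol arrays were thus on the low side in the first gene and on the high side in the second, and neither passed the limits. Among accessory subunits Ndufs4, at 11.59 and 11.53 against 11.66 and 11.76, and Ndufa4, at 10.10 and 10.16 against 10.23 and 10.33, had both ethanol arrays above both controls, by 0.15 each, also short of the limits. Ndufa4l2, a paralog of Ndufa4 known to be induced by hypoxia, was past the limits and lower, at 5.47 and 5.53 against 5.12 and 5.18, a difference of -0.35 (standard error 0.09, adjusted p = 0.173 from limma). Its signal lay in the dim range of the arrays, and after quantile normalization it was at -0.19 and short of the limits.

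**Figure D2:**
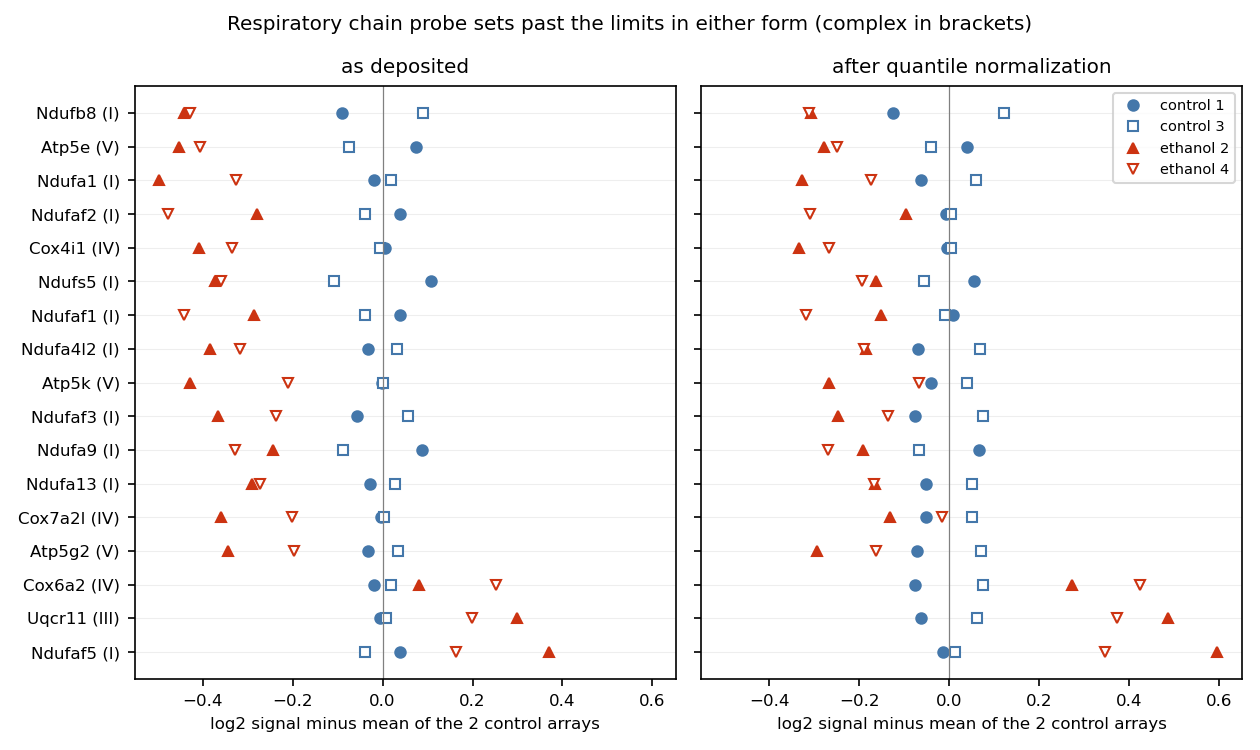
Log2 signal on each of the 4 arrays minus the mean of the 2 control arrays (horizontal axis) for the 17 probe sets past the limits in either form (vertical axis, complex in brackets), as deposited on the left and after quantile normalization on the right. Blue marks are controls and red triangles are ethanol arrays. As deposited all 14 lower probe sets have both ethanol arrays left of both controls, and the 3 at the bottom have them to the right. The probe sets were picked by limits on these same arrays, so this separation follows largely from the choice. Of all probe sets, 52.7% have both ethanol arrays below both controls as deposited and 7.25% above.

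Complex II, succinate dehydrogenase, is the only complex of the chain made wholly from nuclear genes and also works in the citric acid cycle. As deposited, none of its 4 probe sets was past the limits, beside 17.9% of all probe sets that were lower and 2.23% that were higher. Sdha, which binds the flavin, was at 11.53 and 11.64 on the control arrays against 11.50 and 11.56, and Sdhb, which carries the iron-sulfur clusters, was at 9.69 and 9.71 against 9.54 and 9.54. Of the 4, the groups did not overlap in Sdhb alone. The membrane anchors Sdhc (10.34 and 10.47 against 10.14 and 10.43) and Sdhd (8.83 and 9.01 against 8.81 and 8.95) had groups that overlapped. The differences were -0.057, -0.16, -0.12 and -0.039 in the order Sdha to Sdhd, with standard errors of 0.09, 0.08, 0.13 and 0.11. After quantile normalization Sdhd was positive (0.090), and with centered arrays all 4 were.

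Complex III, the cytochrome bc1 complex, had 0 of 12 probe sets past the limits as deposited and 1 after quantile normalization. Of all probe sets, 17.9% were lower and 2.23% higher past them as deposited, and 5.87% and 5.71% after normalization. The nuclear redox subunits of complex III were on the low side. Cyc1, cytochrome c1, was at 10.34 and 10.16 on the control arrays against 10.07 and 9.85, and Uqcrfs1, the Rieske iron-sulfur protein, was at 7.70 and 7.55 against 7.38 and 7.38. The groups did not overlap in either gene, and the differences of -0.30 and -0.25 missed the limits, as did that of the small subunit Uqcrq (9.04 and 8.70 against 8.47 and 8.55, -0.37). The control arrays differed by 0.34 in Uqcrq, nearly as much as the groups did. A probe set of Uqcr11, a small accessory subunit, was at 7.19 and 7.20 on the control arrays against 7.50 on ethanol 2 and 7.40 on ethanol 4. Both ethanol arrays were above both controls, by 0.25 as deposited, just under the fold limit (standard error 0.09, adjusted p = 0.213 from limma), and by 0.43 after quantile normalization (adjusted p = 0.260 from limma), past both limits. The other probe set of Uqcr11 had the ethanol arrays below the controls, at 8.63 and 8.42 against 8.26 and 8.27 (-0.26, and -0.13 after normalization), so the data give no single direction for this gene.

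Uqcrb, a subunit of complex III that helps to form a site for ubiquinone, was high on ethanol 2 and not on ethanol 4. Its 3 probe sets had differences of 0.12 to 0.14, nearly the same in all of them. The brightest had control signals of 12.05 and 11.88, beside 12.35 on ethanol 2 and 11.83 on ethanol 4. In this probe set ethanol 2 was the highest and ethanol 4 the lowest of the 4 arrays. Over the 115 members the largest gap between the ethanol arrays, 0.55, was that of another Uqcrb probe set (12.17 and 11.62). The 3 probe sets of Atp5md, a small membrane subunit of complex V, likewise had ethanol 2 above ethanol 4, the brightest pair being 12.47 and 12.10.

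Complex IV, cytochrome c oxidase, has several subunits that exist as isoforms for different tissues, and its ubiquitous and tissue-restricted isoforms were compared. Cox4i1, the form of subunit IV found in most tissues including brain, was at 10.51 and 10.50 on the control arrays against 10.10 on ethanol 2 and 10.17 on ethanol 4. The control arrays differed by 0.01 and both ethanol arrays were below them. The difference was -0.37 (standard error 0.085, adjusted p = 0.172 from limma) as deposited and -0.30 after quantile normalization (adjusted p = 0.299 from limma), past the limits in both forms, and it was also past them without ethanol 2. Its paralog Cox4i2, known from lung and from the response to low oxygen, was at 6.32 and 6.20 against 6.29 and 6.34, where the groups overlapped as deposited. After quantile normalization both ethanol arrays of Cox4i2 were above both controls, by 0.26, short of the limits.

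Among the other isoform groups, Cox6a2, the form of heart and skeletal muscle, was at 7.18 and 7.22 on the control arrays against 7.28 on ethanol 2 and 7.45 on ethanol 4. Both ethanol arrays were above both controls. The difference of 0.17 was short of the limits as deposited and past them after quantile normalization, at 0.35 (adjusted p = 0.322 from limma). The ubiquitous form Cox6a1 overlapped between the groups, with a difference of -0.023. For subunit 6b the ubiquitous Cox6b1 was at -0.21 and the testis form Cox6b2 at -0.084. For subunit 7a the muscle form Cox7a1 was at -0.13 and the ubiquitous Cox7a2 at 0.17. For subunit 8 the ubiquitous Cox8a was at -0.13, Cox8b at -0.30 and Cox8c at -0.026. None of these passed the limits in either form. Over the 7 probe sets of tissue-restricted isoforms the median was -0.084 as deposited, and over the 12 of ubiquitous ones -0.059. After quantile normalization the order was reversed, with medians of 0.10 and -0.046. The tissue-restricted probe sets were dim (median log2 signal 5.77) and the ubiquitous ones bright (11.46). Normalization moved the median difference of all probe sets under 6 from -0.14 to 0.010, and of those from 10 to 12 from -0.095 to -0.044. The cause of the reversal was not tested. Markers of skeletal muscle (Acta1, Ckm, Myh4, Mylpf, Tnnt3 and Myh1) were dim, with mean log2 signals of 5.98 (control 1), 5.62 (control 3), 5.58 (ethanol 2) and 5.44 (ethanol 4). As deposited, 0 of 6 were past the limits and higher and 2 were lower (Myh4 and Tnnt3), beside 2.23% and 17.9% of all probe sets. The part of muscle in the Cox6a2 signal was not tested.

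Cox7a2l, which is studied for a part in supercomplexes of complexes III and IV, was past the limits and lower in 1 of its 2 probe sets. That probe set was at 6.73 and 6.74 on the control arrays against 6.38 and 6.53. Its groups did not overlap, and its difference was -0.28 (standard error 0.10, adjusted p = 0.208 from limma) and -0.074 after quantile normalization. The other was at 7.96 and 7.65 against 7.71 and 7.61, with groups that overlapped and a difference of -0.15.

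In complex V, the ATP synthase, the lower probe sets came from different parts of the enzyme. Atp5e, the epsilon subunit at the foot of the catalytic F1 head, was at 7.95 and 7.80 on the control arrays against 7.42 on ethanol 2 and 7.47 on ethanol 4. The ethanol arrays lay below both controls by more than the controls differed. The difference was -0.43 (standard error 0.10, adjusted p = 0.171 from limma), and -0.26 after quantile normalization (adjusted p = 0.330 from limma), past the limits in both forms and also without ethanol 2. Under the treatment entry of the labels it turned to 0.053.

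The large subunits of the head that carry the catalytic sites gave other values. Atp5a1, the alpha subunit, was at 11.34 and 11.24 on the control arrays against 11.43 and 11.41, and Atp5b, the beta subunit, was at 13.04 and 13.03 against 12.99 and 12.99. As deposited the groups did not overlap in either gene, with the ethanol arrays higher in the first (0.13) and lower in the second (-0.047), and neither passed the limits. Atp5k, a membrane subunit involved in the pairing of ATP synthases, was past the limits and lower, at 8.14 on both control arrays against 7.71 and 7.93, a difference of -0.32 (standard error 0.11, adjusted p = 0.206 from limma). Its groups did not overlap as deposited, and after quantile normalization it was at -0.17 and short of the limits. The proton-carrying ring of the membrane part is encoded by Atp5g1, Atp5g2 and Atp5g3, which make the same mature protein. One of the 3 probe sets of Atp5g2 was past the limits, at 11.33 and 11.39 against 11.02 and 11.16 (-0.27), and the other 2 were at -0.12 and -0.22. The 2 probe sets of Atp5g1 were at -0.088 and -0.092, and Atp5g3 at -0.12. All 6 probe sets of the ring, which stand for 3 genes, had a negative difference as deposited and after quantile normalization. Of all probe sets, 80.2% had one as deposited and 51.0% after normalization. The median of the ring was -0.12 as deposited. Across the 12 probe sets of membrane accessory subunits the median was -0.080, and across the 7 of the stalk -0.084.

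**Figure D3:**
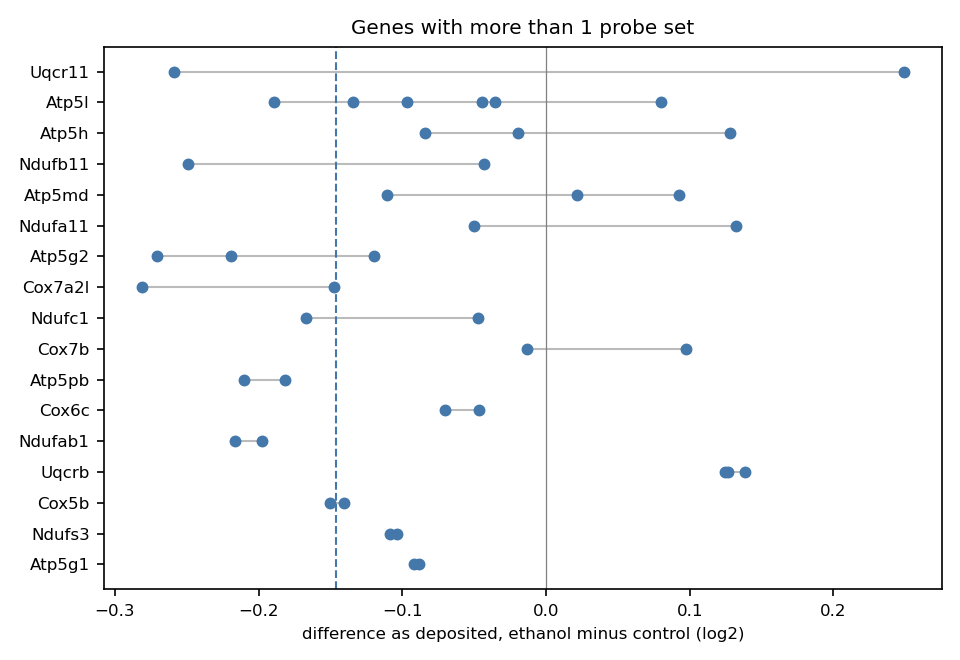
Difference as deposited (log2, ethanol minus control, horizontal axis) of each probe set of the 17 genes that have more than 1 (vertical axis, ordered by the width of the range). Each point is 1 probe set, the gray line joins those of a gene and the dashed line is the median of all probe sets. The points of Uqcr11 lie 0.51 apart, on both sides of 0, and those of Atp5g1 0.00345 apart.

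The 17 genes with more than 1 probe set, 42 probe sets in all, show how far values annotated to 1 gene can differ. Probe positions were not used here, so it is not known whether some of these probe sets read related loci. The range of the differences within a gene ran from 0.00345 in Atp5g1 to 0.51 in Uqcr11, and 6 genes had probe sets with differences of both signs, which were Uqcr11, Atp5l, Atp5h, Atp5md, Ndufa11 and Cox7b. Atp5l, a membrane subunit of complex V, has 6 probe sets, and they ran from -0.19 to 0.080. Some of these genes were singled out after their values were seen. No gene with more than 1 probe set had all of them past the limits. With 1 probe set per gene, the brightest, 12 of 90 genes (13.3%) were lower past the limits and 0 higher, beside 17.9% and 2.23% of all probe sets.

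**Figure D4:**
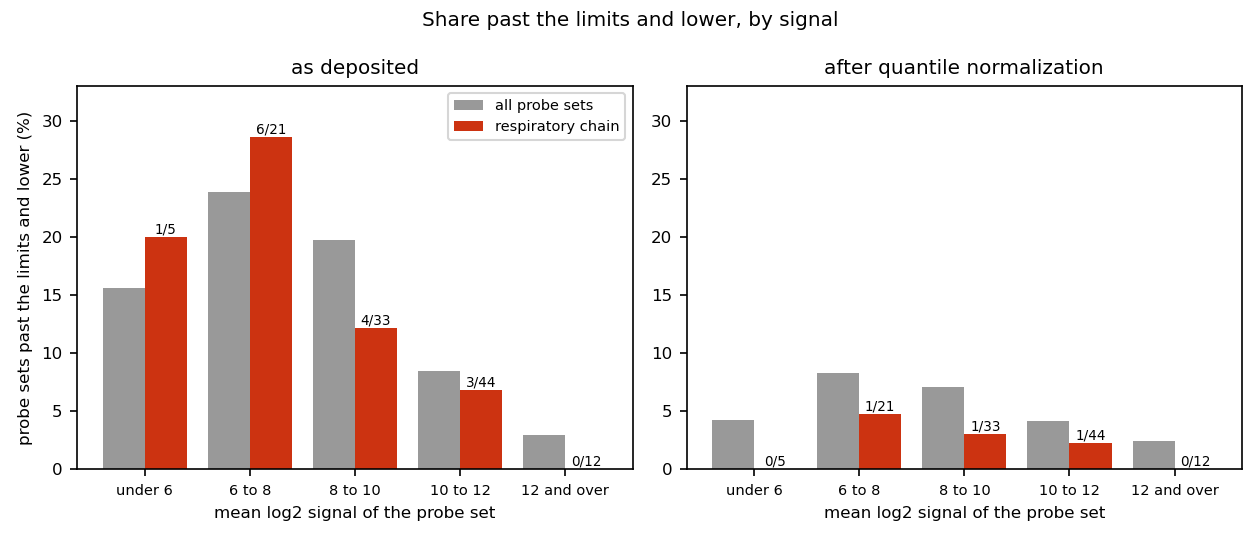
Share of probe sets past the limits and lower (percent, vertical axis) by mean log2 signal (horizontal axis), for all probe sets in gray and for respiratory chain probe sets in red, as deposited on the left and after quantile normalization on the right. Numbers over the red bars are the members past the limits and the members in the class. As deposited the shares are lowest in the brightest class in both groups, at 2.95% of all probe sets and 0 of 12 members.

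The members were bright for this array, and dim and bright probe sets of all kinds differed in how often they were lower as deposited. Of the 115, 56 had a mean log2 signal of 10 or more. Among members with a mean of 6 to 8, 6 of 21 (28.6%) were past the limits and lower, beside 23.8% of all probe sets in that class. Between 8 and 10 it was 4 of 33 (12.1%) beside 19.7%, and between 10 and 12 it was 3 of 44 (6.82%) beside 8.47%. Of the 12 members at 12 or more, 0 were past the limits, beside 2.95% of all. Of the 5 members under 6, 1 was past the limits, beside 15.6%. The median difference of all probe sets in these classes was -0.18 from 6 to 8 and -0.064 at 12 or more, and that of the members was -0.22 and -0.087.

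Genes around the chain were read as lists, each with 1 probe set per gene. Beside their counts, 17.9% of all probe sets were lower past the limits as deposited and 2.23% were higher. After quantile normalization these shares were 5.87% and 5.71%. Among assembly factors outside the symbol rule, 29 of 31 were measured, with a median difference of -0.089. Of these, 3 were past the limits and higher and 3 were lower, and after quantile normalization 4 were higher and 2 were lower. Atpaf1, which helps to build the head of the ATP synthase, was at 9.55 and 9.65 on the control arrays against 9.94 and 9.94, a difference of 0.34 as deposited (adjusted p = 0.175 from limma) and 0.44 after normalization. Sdhaf2, which attaches the flavin to Sdha, was at 8.45 and 8.42 against 8.0 and 8.01, a difference of -0.43 (adjusted p = 0.167 from limma) and -0.30. In both genes the groups did not overlap, and both were past the limits in both forms. The remaining factors past the limits as deposited, named after their values were seen, were Uqcc1 (0.28) and Cox20 (0.39) and, lower, Bcs1l (-0.46) and Ttc19 (-0.35), which act on complexes III and IV. Cox18 passed them after normalization alone (0.38).

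Among 16 of 17 regulators of mitochondrial biogenesis, 2 were lower past the limits as deposited and 0 higher, beside 17.9% and 2.23% of all probe sets. After quantile normalization 0 were past them. Nrf1, the gene of the factor NRF-1, was at 6.90 and 6.54 on the control arrays against 6.27 and 6.22, a difference of -0.47, and Gabpa, named after its value was seen, which encodes the DNA-binding part of GABP, was at 8.33 and 8.16 against 7.97 and 7.68 (-0.42). After normalization these were -0.26 and -0.28. The ethanol arrays were below the controls in both genes, and a link of either gene to the promoter matches was not tested. Of 10 of 11 genes of the mobile carriers and ubiquinone synthesis, 0 were past the limits in either form. Of 16 of 17 citric acid cycle genes, 2 were lower as deposited, Suclg1 (-0.40) and Dlst (-0.29), of which Suclg1 was also past the limits after normalization (-0.28). Of 9 of 12 uncoupling and carrier genes, Slc25a27 alone was past them (-0.32), and of 9 of 10 mitochondrial antioxidant genes, Gpx1 alone (-0.29). Neither was past them after normalization.

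Cell type markers were read in the same way, and the pituitary markers of ethanol 2 gave the widest gap. As deposited, 17.9% of all probe sets were lower past the limits and 2.23% were higher. Markers of neurons, astrocytes and microglia had 0 of 6 past the limits each. Markers of oligodendrocytes had 1 of 5 past them and lower, Cnp (-0.28 as deposited and -0.29 after quantile normalization), and their mean log2 signal was 11.47 and 11.37 on the control arrays against 11.21 and 11.23. Markers of endothelium had 2 of 6 lower (Tek and Pecam1), those of choroid plexus and ependyma 1 of 6 (Kl), those of pituitary 1 of 5 (Pomc), those of skeletal muscle 2 of 6 (Myh4 and Tnnt3), and those of erythroid cells 0 of 3. Of these 6 genes, Pomc alone was past the limits after normalization (-0.35), and 0 markers were higher past them in either form. The part of oligodendrocytes or of these other cells in the signals of the respiratory chain was not tested.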

How the data were processed

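RNA from 4 pools of 3 whole brains was hybridized to Affymetrix Mouse Gene 1.0 ST arrays. The authors summarized the probes with the RMA algorithm, quantile normalization and a GC adjustment in Partek (version 6.6 in the submitters' processing notes, while the methods name another), and deposited log2 values. Arrays give no count of molecules, and precision is set by how few there are. Title and source name placed each array in its group. Each of the 35556 probe sets was fitted with limma 3.58.1 in R 4.3.3 (2 residual and 2.57 prior degrees of freedom), with Benjamini-Hochberg adjustment over all of them. Fits were made on the deposited values and again after another quantile normalization. No dim probe sets were removed. The limits of 1.2-fold and p of 0.05 are the study's. Symbols come from the annotation of the platform, and all 115 members matched a table of mouse genes by Entrez ID. The 115 profiles are all distinct.

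The members, lists and tests were chosen with earlier results of these data known. Named members are those past the limits in either form, the 3 highest and 3 lowest of each complex with a mean log2 of 6 or more, the isoform groups, complex II and the subunits with catalytic sites or cofactors. For each list, the members with the smallest p may be named. Lists cover 9 cell types and assembly factors, mobile carriers, regulators, the citric acid cycle, uncoupling and antioxidant genes, and take the brightest probe set of each gene.

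The alternatives were array centering, grouping by the treatment entry, ethanol 2 and control 3 alone (whose labels do not conflict), a mean log2 of 5 or more, probe sets naming 1 gene, an intensity trend, the ANOVA of the methods per probe set, each array left out (the lone array is assumed to vary like the other group), both replicate blocks, a 1.5-fold limit, an adjusted p, 1 probe set per gene and structural subunits alone. Leaving out arrays after quantile normalization was added after the data were seen. The fits were tested on simulated data, where 14 of 50 probe sets changed by 1.2-fold (28%) were found past the limits. At 1.5-fold 42 of 50 were found, and 4.55% of unchanged probe sets were past the limits. Summaries and figures used Python 3.11.15, pandas 2.3.3 and matplotlib 3.10.9.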

Additional observations from a re-analysis of the deposited data

How the results depend on the processing

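With 4 arrays the values rest on few pools, and the count of lower members differed with the scaling, the grouping, the limits and the arrays used. Past the limits there were 0 higher and 14 lower members as deposited, 3 and 3 after quantile normalization, 12 and 0 with arrays centered on their medians, 0 and 0 under the treatment entry, 0 and 6 by the ANOVA of the methods, 1 and 20 over probe sets naming 1 gene, and 9 lower among structural subunits. At 1.5-fold, and at an adjusted p of 0.05 from limma (where 17 had an unadjusted p under 0.05), there were 0 in either direction. Leaving out each array in turn gave 0 to 1 higher and 5 to 13 lower, and with quantile normalization, chosen after seeing the data, 2 to 5 higher and 1 to 2 lower. The replicate block with control 1 beside ethanol 2 gave 14 lower members, and the opposite pairing 11. The labels give the groups no shared replicate numbers, so neither pairing is known. A minimum log2 of 5, the intensity trend and 1 probe set per gene gave 14, 15 and 12 lower members.

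The median difference of the members, -0.12 as deposited, was -0.047 after quantile normalization, 0.091 with centered arrays, 0.028 under the treatment entry and -0.17 to -0.089 with an array left out. Relative to all probe sets it was 0.025, and -0.043 after quantile normalization. The relative median of complex II, 0.057, was -0.13 under the treatment entry and -0.048 on ethanol 2 and control 3 alone. That of complex III, 0.11, was 0.025 with 1 probe set per gene and -0.0080 to 0.12 with an array left out, and that of complex V, 0.052, was -0.040 after quantile normalization. Those of complexes I and IV kept their sign in every setting run. Their sizes, -0.036 and 0.061, were smaller than the standard deviations between replicate arrays, 0.057 and 0.14.

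Under the treatment entry 13 named differences past the limits changed sign. These were Ndufaf1 (0.12), Ndufaf2 (0.14), Ndufs5 (0.10), Ndufa9 (0.13), Atp5e (0.053), Nrf1 (0.20), Suclg1 (0.12), Slc25a27 (0.041), Sdhaf2 (0.010), Atpaf1 (-0.047), Cnp (0.083), Tek (0.057) and Myh4 (0.29). Differences short of the limits in both settings were given no direction. Of 76 named differences, 17 lost and 3 gained the limits after quantile normalization, 23 and 15 did with centered arrays, 11 and 0 by the ANOVA, 2 and 2 or 7 and 1 under the replicate blocks, and 8 to 17 lost them with an array left out. On ethanol 2 and control 3 alone, 50 of 76 moved by more than the spread between arrays. The cause of these changes was not tested. Of the 14 lower members, 14 stayed past the limits with a minimum log2 of 5, 13 with the intensity trend, 12 and 9 under the replicate blocks, 6 by the ANOVA, 5 to 8 with an array left out, 3 after quantile normalization and 0 with centered arrays.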

Other observations

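Outside the symbol rule, 6 probe sets name a respiratory chain gene together with another gene, and reads of their probes cannot be assigned to either. The probe set that names Ndufs5 with its pseudogene Ndufs5-ps was at 8.06 on control 1, 8.08 on control 3, 7.62 on ethanol 2 and 7.47 on ethanol 4. Both ethanol arrays were below both controls, with a difference of -0.52 as deposited (adjusted p = 0.165 from limma) and -0.37 after quantile normalization, past the limits in both forms. The probe set that names Ndufs5 alone was at -0.37 and -0.18. The 3 probe sets that name Cox7c with Gm12338 had differences of -0.13 to -0.061, and the 2 that name Ndufb4 with Ndufb4b were at -0.17 and -0.17, and none of these 5 was past the limits in either form.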
